A study of Mus musculus with 2 samples.

Results

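Macrophages and monocytes of the mouse lung were described in a pair of single-cell RNA sequencing libraries, 1 labelled Normoxia and 1 labelled Hypoxia. A cell was a member if it had 200 to 6000 detected genes, at most 10% mitochondrial transcripts and at least 1 transcript of at least 3 of 9 myeloid genes (Cd68, Csf1r, Adgre1, Mrc1, Fcgr1, C1qa, Ccr2, Chil3 and Lyz2). Cells with 2 or more of the neutrophil genes Csf3r, Retnlg and Cxcr2, or with 4 or more of the endothelial genes Cdh5, Pecam1, Flt1, Cldn5, Kdr, Tie1, Egfl7 and Ramp2, were left out. This gave 83 members of 986 cell barcodes, 27 in Normoxia and 56 in Hypoxia. The members were thus chosen by their measured levels of these genes, and the levels of these genes in members are a description.

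The lungs came from NG2tdT mice, in which a Cre recombinase driven by the promoter of Cspg4 (the gene of NG2, a proteoglycan of pericytes) and switched on by tamoxifen marks cells with the red protein tdTomato. Per the series' design, tamoxifen was given at 2 mg per 30 g of body weight and the mice rested for 7 days. The Normoxia sample is labelled as untreated, and the Hypoxia mice then breathed 10% oxygen for 21 days, an exposure that raises the pressure in the pulmonary circulation. Both groups carry the same reporter, and the exposure is the labelled difference between them. With 1 library per group it cannot be told apart from differences of animals, preparation or library. The labels mention 3 replicates, but each group is 1 matrix, and whether it pools mice is not stated. The cells are described as sorted for tdTomato. The study's text also describes a whole-lung preparation of wild-type mice from which CD45 and CD326 (Epcam) cells were depleted, and whether it applies to these libraries is not stated. In the members Cspg4 gave 0 UMIs in Normoxia and 1 UMI in Hypoxia, and Ptprc, which encodes the leukocyte protein CD45, was found in 10 of 27 and 39 of 56 cells. How myeloid cells came to be in the libraries, and how a sort or depletion set their shares, was not tested.

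With 1 library per group there was no spread between replicates, and no test was made. Each difference is a difference between these libraries, and each interval is a 95% interval for counting error only. The Normoxia library held 373 barcodes and 1323874 UMIs, the tags that count captured transcripts, and the Hypoxia library 613 barcodes with 1989423 UMIs. The barcodes kept by the gene and mitochondrial limits numbered 330 and 556, and 2 barcode sequences occurred in both libraries. Members were deeper in Hypoxia, with a median of 4979 UMIs (1632 to 16113) against 3690 (1878 to 11801), and their summed UMIs were 294906 and 112285. More than 5% mitochondrial UMIs was found in 18 Hypoxia and 3 Normoxia members.

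Lung macrophages fall into classes that differ in place and origin. Alveolar macrophages live in the air spaces, take up surfactant lipid and depend on the transcription factor PPARγ. Interstitial macrophages lie along vessels and airways and make complement C1q. Classical monocytes arrive from blood by way of the chemokine receptor Ccr2, and non-classical monocytes patrol the vessel wall. Macrophages are known to gather around pulmonary arteries when the lung is hypoxic.

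The rule's own genes, and 1 gene it did not use, were set against the other kept cells to check the label. Lyz2, the lysozyme of myeloid cells, was found in 27 of 27 and 56 of 56 members at 18444 and 21756 CPM (the UMIs of a gene relative to all UMIs of the same cells, scaled to a fixed total), and members held 97.1% and 90.7% of its UMIs in kept cells. For C1qa these shares were 99.3% and 97.8%, and for Csf1r, the receptor for the macrophage growth factor CSF1, they were 93.8% and 90.3%. These 3 genes chose the members, so their shares describe the choice. C1qb, which the rule did not use but which travels with C1qa, was at 4195 and 2068 CPM in members against 2.79 and 6.43 CPM in the other kept cells. Members with exactly 3 of the 9 genes, just inside the rule, numbered 5 in each library. Just outside it, 4 Normoxia and 17 Hypoxia cells had 2 of the genes. Members made up 8.18% (5.46 to 11.7%) of kept Normoxia cells and 10.1% (7.70 to 12.9%) of kept Hypoxia cells. The intervals of these shares overlap, and they hold counting error only.

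The 3 sets asked for by marker gene were of unequal size in the libraries. C1qa, a chain of complement C1q, was found in 23 of 27 Normoxia members (85.2%, 66.3 to 95.8%) and in 18 of 56 Hypoxia members (32.1%, 20.3 to 46.0%). After each member was thinned to 1000 UMIs the shares were 77.8% and 30.4%. Ear2, a ribonuclease of eosinophils, alveolar macrophages and patrolling monocytes that the rule did not use, was found in 4 of 27 (14.8%, 4.19 to 33.7%) and 28 of 56 members (50%, 36.3 to 63.7%), or in 3.70% and 35.7% after thinning. Ccr2 was found in 13 of 27 (48.1%, 28.7 to 68.1%) and 22 of 56 (39.3%, 26.5 to 53.2%), with 25.9% and 23.2% after thinning. The intervals of the C1qa and Ear2 shares do not overlap between the libraries, and those of the Ccr2 shares do. These intervals count cells within a library and hold no spread between replicates, so they cannot test an effect of the exposure. C1qa and Ccr2 are also genes of the rule that chose the members, so their shares depend in part on that choice.

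The same transcripts were looked for in lymphocytes, which should lack most of them. Lyz2 had a UMI in 3 of 23 Normoxia and 21 of 79 Hypoxia T or NK cells, so a UMI of this gene does not by itself mark a member. C1qa had a UMI in 1 of 23 and 3 of 79 T or NK cells, at median depths of 3218 and 3170 UMIs, and in 0 of 38 and 2 of 72 B cells, at 3570 and 1882 UMIs. A count of 0 of 38 allows a share of up to 7.89%. Ear2 had a UMI in 0 of 23 and 0 of 79 T or NK cells, which allows up to 13% and 3.8%, and in 1 of 38 and 0 of 72 B cells. Ccr2 was at 9 of 23 and 10 of 79 in T or NK cells, which express it themselves, and at 0 of 38 and 0 of 72 in B cells. The source of these UMIs was not tested.

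The sets overlapped. Of the C1qa-positive cells, 10 in Normoxia and 8 in Hypoxia were also Ccr2-positive, and 2 in each library were also Ear2-positive. The amounts per cell separated them better than the presence of a UMI. C1qa reached at least 10 UMIs in 20 Normoxia and 16 Hypoxia cells, with a median over C1qa-positive cells of 22 (1 to 59) in Normoxia and 38.5 (1 to 154) in Hypoxia. Ear2 was at 2 UMIs in each of the 4 positive Normoxia cells. In Hypoxia its median over positive cells was 10 UMIs, with a range of 1 to 55. Ccr2 was low throughout, with a median of 1 UMI (1 to 18) in the positive Normoxia cells and 2 (1 to 8) in the positive Hypoxia cells.

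Counting 10 alveolar macrophage markers in each cell (Chil3, Marco, Siglecf, Fabp1, Ear1, Car4, Plet1, Krt79, Atp6v0d2 and Pparg) left a gap. In Hypoxia 23 members had 3 to 8 of them, with a median of 7, and every other member of either library had 0 or 1. The limit of 3 was set after these counts were seen. All 23 cells were Ear2-positive and made up 41.1% (28.1 to 55.0%) of Hypoxia members. In Normoxia 0 of 27 members reached the limit, which allows a share of up to 11.1%, and over all kept cells the shares were 0 of 330, allowing up to 0.909%, and 23 of 556, or 4.14% (2.64 to 6.14%). These cells are called alveolar macrophage-like below. The scavenger receptor Marco, a defining gene of alveolar macrophages, had 0 UMIs in every member. C1qa-positive members outside this group numbered 23 and 16, and 4 and 17 members were left over.

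**Figure D1:**
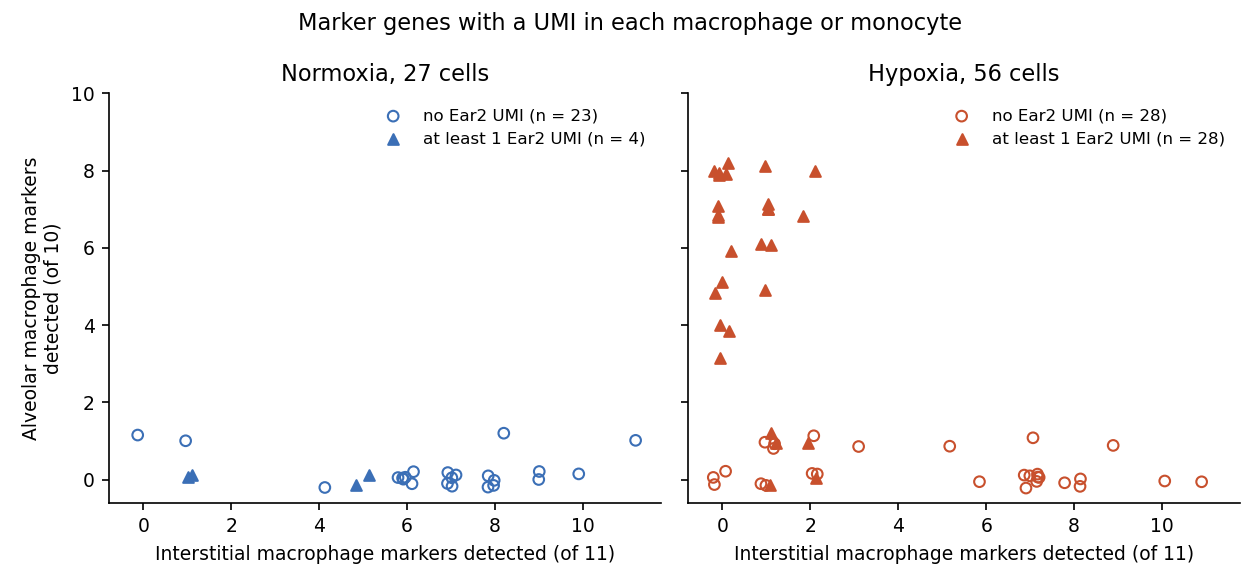
Each point is 1 member, placed by the number of interstitial macrophage markers (of 11, horizontal axis) and alveolar macrophage markers (of 10, vertical axis) with a UMI, with a small random shift; triangles are Ear2-positive cells. The 23 Hypoxia cells with 3 to 8 alveolar markers stand apart, and no Normoxia member has more than 1.

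**Figure D2:**
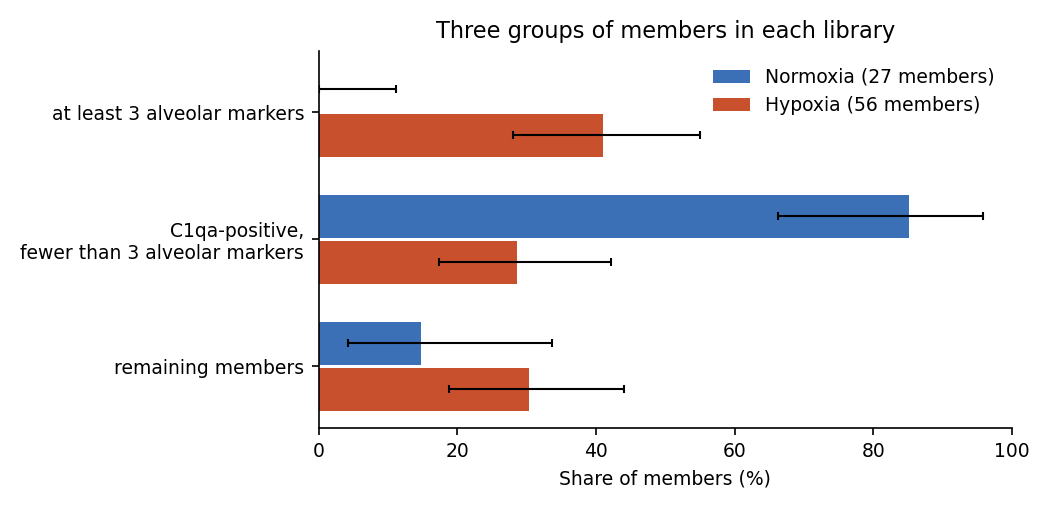
Bars give the share of members (percent) in the alveolar macrophage-like group, the C1qa-positive others and the remaining members, with 95% Clopper-Pearson intervals; for 0 of 27 the line reaches the share that 3 counts would give. The C1qa-positive others are 85.2% of Normoxia and 28.6% of Hypoxia members.

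The alveolar macrophage-like cells carried genes of that class that the count of 10 markers did not use. In these 23 cells Lpl, a lipase that frees fatty acids, summed to 292 UMIs (22 of 23 cells), against 3 UMIs in the 16 C1qa-positive others and 2 in the 17 remaining members of the same library. Abcg1, a cholesterol exporter, summed to 134, 4 and 1 UMIs in the same order. Ctsk, the collagen-degrading cathepsin K, summed to 71, 1 and 0 UMIs, and Bhlhe41, a transcription factor of alveolar macrophages, to 35, 1 and 0. Itgax, which encodes CD11c, summed to 58, 11 and 2 UMIs. Each of these genes was highest in the alveolar macrophage-like cells by CPM. C1qb and C1qc each summed to 0 UMIs there, and Csf1r was at 142 CPM against 652 CPM in the C1qa-positive others.

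Some genes of other cell types were found with them. Flt1, a VEGF receptor best known from endothelium and 1 of the 8 endothelial genes of the rule, had 24 UMIs in 14 of the 23 cells, 0 in the C1qa-positive others and 2 in the remaining members. It had a UMI in 0 of 79 T or NK cells and 2 of 72 B cells of that library. The endothelial genes Cdh5 and Pecam1 gave 1 and 3 UMIs in all 56 Hypoxia members. Krt19, an epithelial keratin, had 61 UMIs in 20 of the 23 cells and 0 UMIs in the other Hypoxia members and in T, NK and B cells. Epcam, an epithelial adhesion gene, had 16 UMIs in 10 of the 23 cells and 6 in the remaining members, and a UMI in 4 of 79 T or NK and 3 of 72 B cells. Whole marker lists were low in the members of both libraries: the 11 endothelial markers summed to 332 CPM in the alveolar macrophage-like cells and to 53.5 to 204 CPM in the other groups of members, and the 10 epithelial markers to 316 CPM and to 107 to 350 CPM. The rule left out cells with 4 or more of its 8 endothelial genes, so low endothelial values in members follow in part from that choice. Of cells with at least 3 of the 9 myeloid genes it left out 0 in Normoxia and 1 in Hypoxia for this reason. The epithelial list does not hold Krt19: it summed to 40 UMIs in the 23 cells, fewer than the 61 of Krt19 alone. Scrublet, a doublet caller, marked 0 members and 1 Normoxia and 2 Hypoxia barcodes in all. The part of doublets in these values was not tested.

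In GRCm38 Ear1 (chr14:43818765-43875517, minus strand) and Ear2 (chr14:44102654-44103534, plus strand) lie on the same chromosome and belong to a family of closely similar genes. How the counting divided reads between them is not known, and their transcripts were not compared. Aligned over 303 positions, the RefSeq promoter windows (250 bases before to 50 after the start, GRCm38.p6) shared 294 bases, or 97.0%. For Ear1 and Retnla the start used for the window is not the start of the gene span given in this text. The Ear1 window lies inside that gene's span. Both Ear windows are shown here with Retnla and C1qb because these genes carry the differences between the groups of members. Capitals mark matches on either strand to 3 motifs: GAGGAA, the core bound by the myeloid factor PU.1, TTGCNNAA, bound by C/EBP factors, and TTC and GAA with any 4 bases between them, bound by STAT factors.
Ear1 (chr14:43819590-43819889, minus strand): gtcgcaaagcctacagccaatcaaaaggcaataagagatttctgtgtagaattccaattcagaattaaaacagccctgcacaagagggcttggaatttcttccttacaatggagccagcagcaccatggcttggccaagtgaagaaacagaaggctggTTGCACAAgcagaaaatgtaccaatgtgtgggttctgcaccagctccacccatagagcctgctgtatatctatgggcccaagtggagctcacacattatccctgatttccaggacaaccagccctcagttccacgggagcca
Ear2 (chr14:44102404-44102703, plus strand): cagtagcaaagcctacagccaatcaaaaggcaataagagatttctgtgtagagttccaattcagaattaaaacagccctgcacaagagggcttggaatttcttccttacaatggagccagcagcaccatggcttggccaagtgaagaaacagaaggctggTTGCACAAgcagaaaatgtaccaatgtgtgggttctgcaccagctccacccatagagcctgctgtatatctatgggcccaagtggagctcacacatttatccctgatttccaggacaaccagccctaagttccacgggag
Retnla (chr16:48842359-48842658, plus strand): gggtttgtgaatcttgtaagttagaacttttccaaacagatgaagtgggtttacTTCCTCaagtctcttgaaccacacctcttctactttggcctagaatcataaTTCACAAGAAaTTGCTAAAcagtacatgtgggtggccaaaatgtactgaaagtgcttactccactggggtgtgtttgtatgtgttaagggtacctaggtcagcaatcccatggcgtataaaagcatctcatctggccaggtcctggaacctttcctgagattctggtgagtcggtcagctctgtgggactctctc
C1qb (chr4:136886151-136886450, minus strand): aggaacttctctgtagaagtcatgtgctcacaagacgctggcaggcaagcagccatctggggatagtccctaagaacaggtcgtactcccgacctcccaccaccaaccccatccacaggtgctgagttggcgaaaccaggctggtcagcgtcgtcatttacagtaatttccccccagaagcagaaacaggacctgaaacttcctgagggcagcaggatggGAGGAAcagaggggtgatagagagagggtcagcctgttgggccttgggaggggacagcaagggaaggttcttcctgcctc
Each Ear window held 1 C/EBP match in the same surroundings, which 10.8% of 32851 mouse promoter windows hold. The Retnla window held 1 match to each motif, with the STAT match at bases -145 to -136 from the start and the C/EBP match beside it at -134 to -127. The STAT motif is in 6.95% and the PU.1 core in 28.3% of windows. C1qb had 1 PU.1 core at -30 to -25. The letters ACGTG of the hypoxia response element, in 19.6% of windows, were in 0 of these 4. A match is a description of these letters and not a binding site.

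Summed over all members, 2614 genes had at least 20 UMIs over both libraries, and 15.4% of them were at least 2-fold higher and 6.58% at least 2-fold lower in Hypoxia. The median log2 ratio of Hypoxia over Normoxia was 0.13. The 12 genes that the naming rule placed highest each had 0 UMIs in Normoxia members, so that only a lower bound on the fold could be given (3 counts taken for 0). Wfdc21, a small secreted protein, had 137 UMIs in 18 Hypoxia members and was at least 17.4-fold higher, and Ear1, with 124 UMIs in 21 cells, at least 15.7-fold. Fabp1, a fatty acid binding protein, had 92 UMIs and was at least 11.7-fold higher. Slpi, a protease inhibitor, had 88 UMIs, of which 42 came from 1 cell, and Plet1, a surface protein of alveolar macrophages, had 88 UMIs in 22 cells. The others were Clec4n, Ctsk, Krt19, Slc7a2, Krt79, Klhdc4 and Ly6c2, at least 4.70- to 10.2-fold higher. Ear1, Fabp1, Plet1 and Krt79 are among the 10 markers that chose the alveolar macrophage-like cells. Of the genes that were not used, those cells held every UMI of Wfdc21 and Krt19 in members, 71 of 72 of Ctsk, 70 of 80 of Clec4n, 43 of 49 of Slc7a2 and 39 of 44 of Klhdc4. They held 40 of 88 UMIs of Slpi and 0 of 37 of Ly6c2, whose 11 cells were all among the remaining members.

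Chil3, a chitinase-like lectin secreted by alveolar macrophages that the rule used, had 3 UMIs in 1 Normoxia member and 1031 in 32 Hypoxia members, a log2 ratio of 7.03 (5.48 to 9.31). The alveolar macrophage-like cells held 986 of these UMIs, with 6 to 97 in each cell. Of the alveolar macrophage list 16 of 20 genes had 20 UMIs, and 15 of them were at least 2-fold higher (median log2 ratio 5.89, or 3.54 with genes at 0 set to their bound). The list held 70 UMIs in Normoxia, with 10 genes at 0, and 3292 in Hypoxia. Most of its genes could thus reach 20 UMIs only through Hypoxia, so this count follows largely from the filter and is a description. Of the 13 measured genes of lipid uptake and efflux 8 were higher and 0 lower, with a median of 1.61. Only 5 of them still had 20 UMIs without the alveolar macrophage-like cells of Hypoxia, so this count too follows in part from the filter and is a description. Fabp5, a carrier of fatty acids, was at 17.8 and 370 CPM, and Cd36, a scavenger receptor for lipids, at 312 and 220 CPM. Without the alveolar macrophage-like cells, an alternative chosen after the data were seen, the lipid median was 0.24 over 5 genes, and 132 genes of 1701 were at least 2-fold higher and 88 lower.

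Interstitial macrophage genes were lower over all members. Of 19 such genes 12 were at least 2-fold lower and 0 higher, with a median log2 ratio of -1.11, which was -0.30 without the alveolar macrophage-like cells. C1qa summed to 4782 CPM in Normoxia and 2536 CPM in Hypoxia members, C1qb to 4195 and 2068 CPM, and C1qc to 3224 and 1607 CPM. Within C1qa-positive cells, which were chosen by a C1qa UMI, the levels were close, as given below. Of 10 measured genes for presenting antigen on MHC class II, 2 were lower and 0 higher, with a median of -0.81 and of -0.24 without the alveolar macrophage-like cells. H2-Ab1, a class II chain, was at 7312 and 4195 CPM. The interferon list (0 higher and 3 lower of 6, median -0.96) and the immediate early and heat shock list (0 higher and 10 lower of 22, median -0.79) were also lower, and without the alveolar macrophage-like cells their medians were -0.24 and -0.38.

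**Figure D3:**
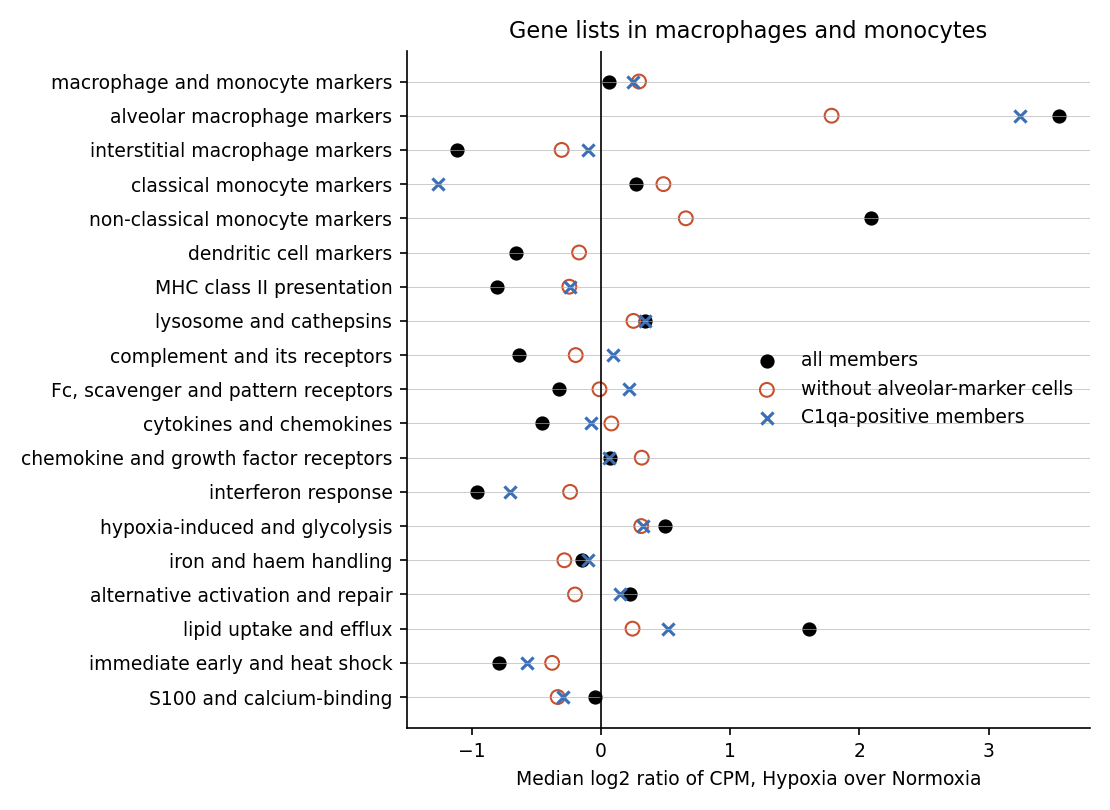
Median log2 ratio of CPM, Hypoxia over Normoxia, for gene lists with at least 5 genes of 20 or more UMIs; filled points are all members, open circles leave out the alveolar macrophage-like cells (3 genes or more), and crosses are C1qa-positive members, with genes at 0 set to the value that 3 counts give. Leaving out the alveolar macrophage-like cells brings the interstitial median from -1.11 to -0.30 and the lipid median from 1.61 to 0.24.

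Retnla (chr16:48842551-48844461, plus strand) was the lowest of the named genes. It encodes RELMα, a secreted protein of alternatively activated macrophages that was also described as a factor induced in hypoxic lung. In Normoxia it had 1068 UMIs in 9 of 27 members, all C1qa-positive, with 1 to 520 UMIs per cell and a median of 32. The cells with 520 and 317 UMIs held most of the sum. In Hypoxia 2 cells had 1 UMI each. Over all members the log2 ratio was -10.45 (-13.50 to -8.60), and it was -10.62 without the highest cell of each library. Members without C1qa had 0 Retnla UMIs in either library. The alternative activation list summed to 1023 UMIs in Ccr2-positive Normoxia members and 362 in the other Normoxia members. The 1068 Retnla UMIs exceed those 362, so Ccr2-positive cells carried Retnla as well.

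Other named genes were also lower in Hypoxia members. Fxyd2, a regulator of the sodium pump, had 44 UMIs in 8 Normoxia and 12 in 6 Hypoxia members (log2 ratio -3.27, -4.32 to -2.32). F13a1, the A subunit of clotting factor XIII, had 59 and 28 UMIs (-2.47, -3.17 to -1.80), and Egr1, an immediate early transcription factor, 86 and 46 (-2.30, -2.85 to -1.76). For Cxcl13, a B cell attractant, 1 Normoxia cell held 92 of 163 UMIs, and for Ccl4, a chemokine, 1 held 56 of 79, so that the Ccl4 ratio moved from -3.05 to -1.79 without the highest cells. Cd209a, Ccl24, Tnfaip3, Emp1, Gas6 and Dok2 completed the 12, at log2 ratios of -3.51 to -2.39 and with 14 to 26 UMIs in Normoxia.

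**Figure D4:**
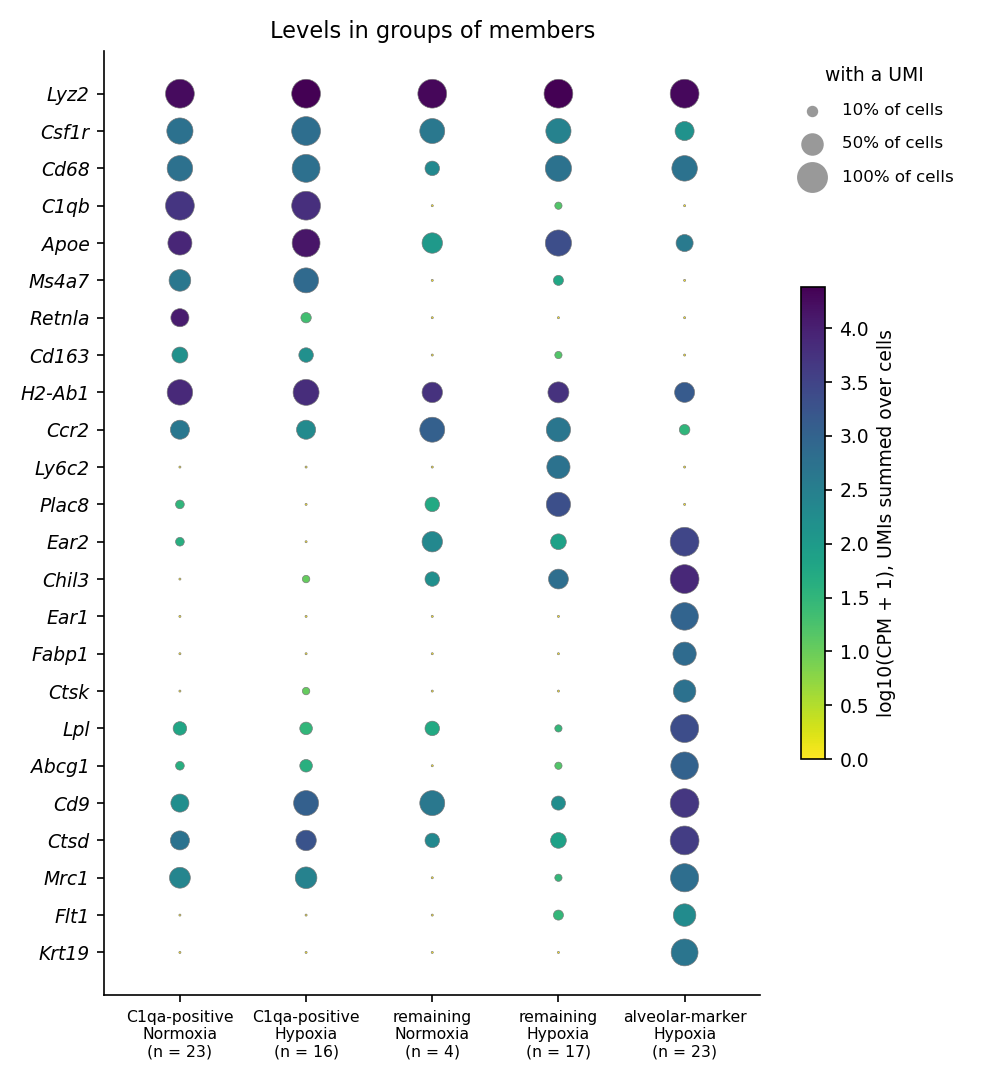
Levels of 24 genes in 5 groups of members; the color gives log10(CPM + 1) from UMIs summed over the cells and the size of the dot the percentage of cells with a UMI. Retnla is dark in the Normoxia C1qa-positive cells alone, Ly6c2 and Plac8 are highest in the remaining Hypoxia members, and Ear1, Fabp1, Ctsk and Krt19 in the alveolar macrophage-like cells.

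The C1qa-positive set allowed the libraries to be compared within a class of macrophage. Its leading genes against the other members, over both libraries, were C1qb, Retnla, Pf4, C1qc, Fxyd2, Stab1, Gpr34, Pmp22, Cd163 and Ms4a7. C1qb, the second chain of C1q, was at 5181 CPM in the set and 5.03 CPM outside it. Pf4, a chemokine also stored in platelets, was found in 75.6% of the cells, and Cd163, the receptor for haemoglobin bound to haptoglobin, in 26.8%. Of the 11 interstitial macrophage markers, C1qa included, these cells had a median of 7 in each library, with 4 to 11 in Normoxia and 2 to 11 in Hypoxia. The 2 Hypoxia cells with 2 markers had 1 C1qa UMI each and were alveolar macrophage-like.

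Within C1qa-positive members, 1270 genes had at least 20 UMIs, of which 7.09% were at least 2-fold higher and 6.46% at least 2-fold lower in Hypoxia, around a median of 0.03. The 3 chains of C1q, whose genes lie side by side on chromosome 4 between 136880129 and 136898803 (minus strand), were near equal. C1qa was at 5737 and 6512 CPM (log2 ratio 0.18, 0.02 to 0.35), C1qb at 5032 and 5302 CPM (0.08, -0.10 to 0.25) and C1qc at 3867 and 4127 CPM (0.09, -0.11 to 0.30). Without the 2 alveolar macrophage-like cells these ratios were 0.38, 0.28 and 0.30. A C1qa UMI chose the cells of this set, so similar C1q levels within it follow in part from that choice. Csf1r (0.05, -0.50 to 0.60) and Cd68 (0.02, -0.52 to 0.56) were close too. Apoe, the lipid carrier apolipoprotein E, was at 8279 and 11919 CPM (0.53, 0.40 to 0.65), with 378 of 1369 Hypoxia UMIs in 1 cell.

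Among the genes higher in Hypoxia within this set was Cd9, a tetraspanin, which had 16 UMIs in 9 of 23 Normoxia cells and 186 in 14 of 18 Hypoxia cells (log2 ratio 3.24, 2.51 to 4.08), and 16 and 112 UMIs without the 2 alveolar macrophage-like cells (2.72, 1.95 to 3.57). Of these 112 UMIs 1 cell held 56. Ctsd, the protease cathepsin D, had 51 and 243 UMIs (1.96, 1.52 to 2.42), but 1 Hypoxia cell held 158 and 1 Normoxia cell 34 of them, and without the alveolar macrophage-like cells and the highest cells the ratio was 0.66. Gapdh, a glycolytic enzyme, was at 449 and 1062 CPM (1.24, 0.73 to 1.79). Of the whole lysosome list 2 of 20 genes were higher and 0 lower (median 0.34), a share near that of all genes, and of the hypoxia-induced and glycolysis list 1 of 10 was higher and 0 lower (median 0.33), Gapdh being that gene.

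Genes lower in Hypoxia within the set included transcription factors and interferon-induced genes. Klf2, a factor that keeps macrophages quiescent, had 154 and 52 UMIs (log2 ratio -1.86, -2.34 to -1.40), and Klf4 56 and 21 (-1.71, -2.51 to -0.96). Egr1 had 85 and 30 UMIs (-1.80, -2.45 to -1.18), while Fos, another immediate early gene, was at 2083 and 1759 CPM (-0.24, -0.54 to 0.05). Of the 22 immediate early and heat shock genes 6 were at least 2-fold lower and 0 higher, with a median of -0.57. Over all members 10 of the 22 were lower and 0 higher, with a median of -0.79, but the list was not lower in each group of cells. In Ccr2-positive members 1 of 22 was lower and 1 higher, with a median of 0.05 and sums of 16360 and 16372 CPM in Normoxia and Hypoxia. That set differed in makeup, with 10 of 13 Normoxia and 8 of 22 Hypoxia cells C1qa-positive, so it does not compare the libraries within a class. In the 4 and 17 remaining members the list summed to 15688 and 16729 CPM. Dissociation of tissue is known to induce this list, and its part was not tested. Ifitm3, an antiviral membrane protein, had 126 and 52 UMIs (-1.57, -2.07 to -1.10) and Ifi27l2a 177 and 31 (-2.81, -3.41 to -2.25), with 84 of the 177 in 1 cell. F13a1 had 53 and 13 UMIs (-2.32, -3.32 to -1.43), and Selenop, a selenium carrier, 321 and 164 (-1.26, -1.54 to -0.99). Retnla was again the lowest, at -9.36 (-12.40 to -7.50). The scavenger receptor Cd163 (14 and 16 UMIs) and the mannose receptor Mrc1 (23 and 34 UMIs) had intervals that held 0.

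**Figure D5:**
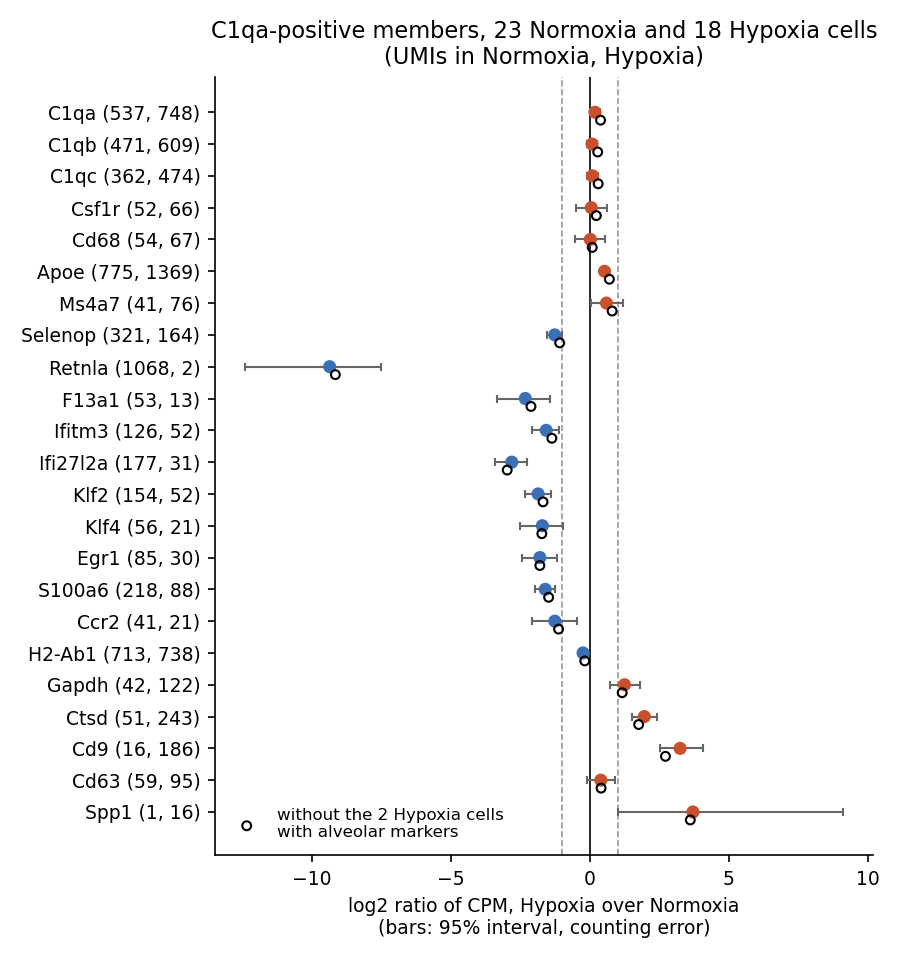
Log2 ratio of CPM, Hypoxia over Normoxia, with 95% counting intervals for 23 genes in C1qa-positive members, with the UMIs in brackets; dashed lines mark 2-fold and open circles leave out the 2 Hypoxia cells with alveolar markers. The 3 C1q chains lie near 0, Retnla is far below, and Cd9, Ctsd and Gapdh lie above 1.

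Ccr2-positive members held cells of several kinds. Leading genes of the set were Ccl4, Ly6c2, Itgb7, Rtp4, Hp, Gng10, Ms4a4c, Ppfia4, H2-DMb2 and Epsti1, ranked over both libraries together. Of the 96 Ccl4 UMIs 77 came from Normoxia, 56 of them from 1 cell (1147 and 156 CPM in Normoxia and Hypoxia). Ly6c2, the surface protein that marks classical mouse monocytes, and Plac8 and Hp, which such cells also express, came from Hypoxia: within the set Ly6c2 had 0 and 34 UMIs, Plac8 2 and 110 (log2 ratio 4.92, 3.03 to 7.98), and Hp, haptoglobin, 1 and 33 (4.18, 1.60 to 9.53). Of the 13 Ccr2-positive Normoxia cells 10 were C1qa-positive, and 3 had neither C1qa nor 3 alveolar markers, against 12 of 22 in Hypoxia. Of the 8 classical monocyte markers, Ccr2 included, these 12 cells had a median of 4.5 (1 to 7), and 9 of them had at least 3. In Normoxia the 3 cells had 1, 1 and 3. The alternative activation list summed to 15242 CPM in Normoxia and 3125 CPM in Hypoxia cells of the set. Most of the Normoxia sum was Retnla: the set held 1023 UMIs of the list and the other Normoxia members 362, against 1068 of Retnla. The cell with 520 Retnla UMIs was in the set, so this sum rests largely on 1 gene in few cells. Of the 9 measured genes of the list 2 were at least 2-fold lower and 2 higher. Among the genes lower in Hypoxia within the set was Lyz1, a lysozyme nearly identical to Lyz2, with 68 UMIs in 2 Normoxia cells and 0 in Hypoxia. Reads of Lyz1 and Lyz2 may be shared by the counting.

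The Ear2-positive set was mainly the alveolar macrophage-like group in Hypoxia. Its leading genes were Ctsk, Car4, Wfdc21, Ear1, Bhlhe41, Fabp1, Lpl, Plet1, Chil3 and Acaa1b, and each had 0 UMIs in the 4 Normoxia cells of the set. Car4, a carbonic anhydrase, was at 402 CPM in the set and 4.20 CPM in the other members. The 5 Hypoxia cells of the set outside the alveolar macrophage-like group had 1 Ear2 UMI each, 1 to 7 classical monocyte markers (median 6) and 3 to 19 Plac8 UMIs. Of 10 non-classical monocyte markers, 1 Normoxia cell of the set had 8 and 1 Hypoxia cell had 7. No comparison of levels was made between them.

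The remaining members, neither C1qa-positive nor alveolar macrophage-like, numbered 17 in Hypoxia and 4 in Normoxia. In the Hypoxia cells Plac8 summed to 147 UMIs (12 of 17 cells) and Ly6c2 to 37 (11 of 17), with 0 UMIs of either in the alveolar macrophage-like cells. The dendritic cell list was also highest in these 17 cells, at 12517 CPM against 3397 to 9639 CPM in the other groups of members. In 1 of them H2-Ab1 had 134 UMIs, with 2 of 8 dendritic cell markers and Ccr2 as the only classical monocyte marker. Whether dendritic cells are among the members was not tested. The interferon list summed to 8801 CPM in these 17 cells, against 2327 CPM in the C1qa-positive others and 656 CPM in the alveolar macrophage-like cells of the same library. In Normoxia it summed to 5783 CPM in the 4 remaining members and 5470 CPM in the C1qa-positive cells. MHC class II genes summed to 10586 CPM in the alveolar macrophage-like cells and to 32073 CPM or more in each other group of members, and immediate early and heat shock genes to 6122 CPM there against 14474 CPM or more.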

How the data were processed

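For 2 libraries the deposited matrices hold unnormalized UMI counts by gene and barcode (10x Chromium 3' chemistry), with tables of gene names and barcodes that hold other, non-numeric values. Per the file headers the matrices come from Cell Ranger 3.1.0, and the study's methods give STAR and mm10. The study states a mitochondrial limit of 5%. The 10% used here is part of the rule for members.

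CPM was taken from UMIs summed over a group of cells, relative to the group's total. Ratios have exact conditional binomial intervals, sums exact Poisson intervals and shares Clopper-Pearson intervals, all at 95%. Genes below 20 UMIs over both libraries were not compared, a call was a 2-fold difference, and 0 was taken to allow 3 counts. There is no replicate library and cells do not stand in for one, so no p-value was computed. The calculation was tested on simulated counts.

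Named genes were the 12 highest and 12 lowest ratios with at least 20 UMIs, detection in at least 10% of members of 1 library, an interval without 0 and a 2-fold ratio that held without the highest cell of each library, without mitochondrial, ribosomal, Gm and Rik genes. For each set the 10 genes with the highest ratio to the other members were added (20 UMIs, 20% of cells), with genes of the rule and of the lists. The gene lists (identity, function and other cell types) and the members were chosen with earlier results of these data known. Promoters come from RefSeq (GRCm38.p6) and were matched by symbol, C1qa without an entry. Doublets were kept, and Scrublet (scanpy 1.11.5) was an alternative. Further alternatives were other cell limits, thinning to 1000 UMIs, other totals, equal weight per cell and other minimums.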

Additional observations from a re-analysis of the deposited data

Results flagged for a closer look

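Fn1, the matrix protein fibronectin, and Ccl6, a macrophage chemokine, had ratios of opposite direction in the C1qa-positive and the C1qa-negative members, and this difference was not tested. For Fn1 the log2 ratio of Hypoxia over Normoxia was 1.26 (0.70 to 1.86) in C1qa-positive members, from 35 and 103 UMIs, and -1.71 (-2.53 to -0.83) in C1qa-negative members, from 17 and 50 UMIs. In the C1qa-positive set 1 Hypoxia cell held 94 of the 103 UMIs, and the ratio without the highest cell of each library was -1.56. In the C1qa-negative Normoxia members all 17 UMIs came from 1 cell. For Ccl6 the ratio was -0.65 (-0.99 to -0.32) in C1qa-positive members, from 173 and 135 UMIs, and 1.14 (0.60 to 1.74) in C1qa-negative members, from 28 and 596 UMIs, of which the Hypoxia cells with alveolar markers held most (597 UMIs in all 23 of them, C1qa-positive cells included).

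Among barcodes that the limits on genes and mitochondrial transcripts left out, 9 of 57 in Hypoxia and 3 of 43 in Normoxia carried the myeloid markers of the rule. All 12 exceeded the mitochondrial limit, with medians of 16.3% and 12.6% mitochondrial UMIs. Of the Hypoxia barcodes 4 had at least 3 alveolar macrophage markers, and 0 of the Normoxia barcodes did. Their part in the shares of members was not tested further.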

How the results depend on the processing

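No paired analysis was possible because each group is 1 library with no replicate number, and for the same reason no library could be left out. Of the alternative values 361 were counted as having stayed and 40 as moved. Shares and summed levels were held to counting error and numbers of genes to 1.5-fold. List medians were held to a wide band, the medians of the limits of the single-gene intervals, which is not a counting error of the median. For the lipid list this band ran from -0.11 to 3.98, so its fall without the alveolar macrophage-like cells was counted as having stayed. Of 20 list medians 9 changed sign under at least 1 alternative, in 22 of 277 values, among them those of the dendritic cell, S100, receptor, cytokine, iron and alternative activation lists. The medians of the alveolar, interstitial, MHC class II, lysosome, lipid, interferon, hypoxia and immediate early lists did not change sign under any alternative run. For the alveolar list the sign follows largely, and for the lipid list in part, from the filter on UMIs over both libraries. The cause was not tested except where the alternative itself leaves out cells or genes.

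Leaving out the alveolar macrophage-like cells (chosen after the data were seen) gave Hypoxia shares of 48.48% C1qa-positive, 57.58% Ccr2-positive and 15.15% Ear2-positive, 132 genes higher and 88 lower, and list medians of 1.785 (alveolar), -0.3039 (interstitial) and -0.2446 (MHC class II). In a second random thinning to 1000 UMIs Ccr2-positive cells were 17.86% in Hypoxia and Ear2-positive cells 3.704% and 33.93% in Normoxia and Hypoxia, 80 genes were higher and 46 lower, and the complement median was -1.249 and the S100 median 0.478 (-0.64 and -0.04 unthinned). With a minimum of 10 UMIs 896 genes were higher and 402 lower, and with 50 UMIs 116 and 61, with a dendritic cell median of 1.192 against -0.66. Requiring 2 myeloid genes gave a Hypoxia member share of 13.13%, and 4 gave an MHC class II median of -1.178. With 2 UMIs for a positive cell, Ccr2-positive shares were 22.22% and 25%.

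Summed marker levels in the sets moved too. Interstitial genes in C1qa-positive cells (28310 and 28470 CPM in Normoxia and Hypoxia) were at 29650 and 32390 with 2 UMIs, 38050 and 38730 without mitochondrial and ribosomal genes, 34840 and 32350 with equal weight per cell, and 25980 in Hypoxia at 5% mitochondrial UMIs. Classical monocyte genes in Ccr2-positive cells (27410 and 24260) were at 36570 and 27580, 36950 and 33670, 23360 and 27040, and 26040 in the same order, so the library with the higher value is not the same under equal weight. This sum does little to set monocytes apart. With Ccr2 included it was 28487 CPM in the alveolar macrophage-like cells and 33647 CPM in the remaining Hypoxia members. The single genes Ly6c2, Plac8 and Hp were higher in Hypoxia within the Ccr2-positive set, as given above. Alveolar genes in Ear2-positive Hypoxia cells (18530) were at 21250 with 2 UMIs and 24470 without mitochondrial and ribosomal genes.

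The number of cells limits the Normoxia values: a count of 0 among 27 members allows a share of up to 11.1%.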
